A study of Capra hircus with 6 samples.

Results

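HCFC1R1 encodes host cell factor C1 regulator 1, a small protein known from human cells to bind the chromatin coregulator HCFC1 and to promote its export from the nucleus. The circular RNA entries of this gene were taken from the back-splice tables by the host name HCFC1R1. Entries named by a gene number on the same chromosome and strand and within 1 base of the span of these were also sought. This gave 6 entries of the 25500 in the tables. All 6 were of the intronic class, of which the tables hold 2596 entries, 0 were exonic and 0 carried a gene number. The label "intronic and exonic" therefore did not hold, and the gene is described here by its intronic circles alone. HCFC1R1 was chosen by its measured level and its difference between stages in these same tables, so both are given as a description with no test.

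The tissue was the longissimus dorsi, a back muscle, of animals of the Haimen goat strain. Of the libraries, 3 came from fetuses at day 75 of gestation (fetus) and 3 from kids at 1 day of age (kid), and the study asks how circular RNA differs between these stages. RNA of all libraries had its ribosomal RNA removed and was then digested with RNase R, which degrades linear RNA but spares circles and lariat loops. The labels list separate samples but do not say that each came from another animal, so the spread between libraries may be technical.

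An intron leaves the transcript as a lariat, a loop in which its first base, at the 5′ splice site, is bound to the branch point near its 3′ end. The debranching enzyme DBR1 normally opens the loop, and the intron is degraded. Some loops escape and persist as intronic circular RNA, with the tail beyond the branch point trimmed away. A read across the joined ends looks the same in a lasting circle and in a lariat loop not yet opened, so the reads below do not tell them apart.

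All 6 entries shared a 5′ end and differed in the 3′ end alone. They lie on the minus strand of chromosome 25, in the intron that the tables number 3, and their common 5′ end is at base 2320981 in the coordinates of the files. No build is named for these in the sources used here. The most read circle ended at base 2320770 and is 212 bases long. One circle was 1 base shorter (211 bases), and others were 1, 2 and 3 bases longer (213, 214 and 215 bases). Thus 5 neighbouring bases were each listed as a 3′ end. Whether entries 1 base apart stem from separate molecules was not tested. The last entry ended 8 bases beyond the main one, at base 2320762 (220 bases).

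The libraries held 33222 to 77111 back-splice reads out of 34123876 to 52035202 valid reads, and 3 reads are the limit that a count of 0 allows. Fetus 1 and fetus 2 kept 70.7% and 69.1% of their raw reads, the other libraries 84.0% to 87.9%. Levels are given as CPM, reads per 1000000 back-splice reads scaled with TMM factors. As to the labelled tissue, 12 of 16 listed muscle fibre genes, NEB, TTN and MYBPC1 among them, had circular RNA.

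The 212-base circle had 92, 134 and 241 reads in the fetus libraries and 1708, 1034 and 1725 in the kid libraries. Every kid library stood above every fetus library, also after scaling, with 24028 to 26587 CPM against 2343 to 3959 CPM. The mean level was 3325 ± 863 CPM (SD, n = 3) in fetus and 25193 ± 1295 CPM (SD, n = 3) in kid, a ratio of 7.58.

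The 213-base circle had 3, 6 and 6 reads in fetus and 68, 58 and 88 in kid. Its stages did not overlap either, with 113 ± 45.8 CPM in fetus against 1240.5 ± 269 CPM in kid (SD, n = 3 each), a ratio of 10.96. The 214-base circle had 0, 3 and 6 reads in fetus and 50, 27 and 52 in kid. Its mean level was 60.3 ± 52.8 CPM in fetus and 717 ± 31.3 CPM in kid (SD, n = 3 each), a ratio of 11.9 that rests on 9 fetus reads.

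The 2 rarer neighbours were read in kid and in no fetus library. The 211-base circle had 29, 17 and 30 reads in kid, at least 19.3-fold higher there if fetus is set to a floor of 3 reads for its libraries together. The 215-base circle had 21, 13 and 23 reads, at least 14.5-fold higher. These bounds rest on the fetus depth, and without fetus 3 they were 10.7-fold and 8.04-fold. The 220-base circle had 1 read in all, in kid 3, and no fold is given for it. It was also the one member that failed the filter of 5 reads in 3 libraries. In the 5 members that passed, the CPM of every kid library lay above that of every fetus library, as in 19.7% of all 1904 entries tested. Nothing is read from this count, since the gene was chosen for its stage difference, the members are end variants of one circle, and the circles of 211 and 215 bases passed the filter through kid alone. Those of 213 and 214 bases would not have passed on their fetus reads either.

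**Figure D1:**
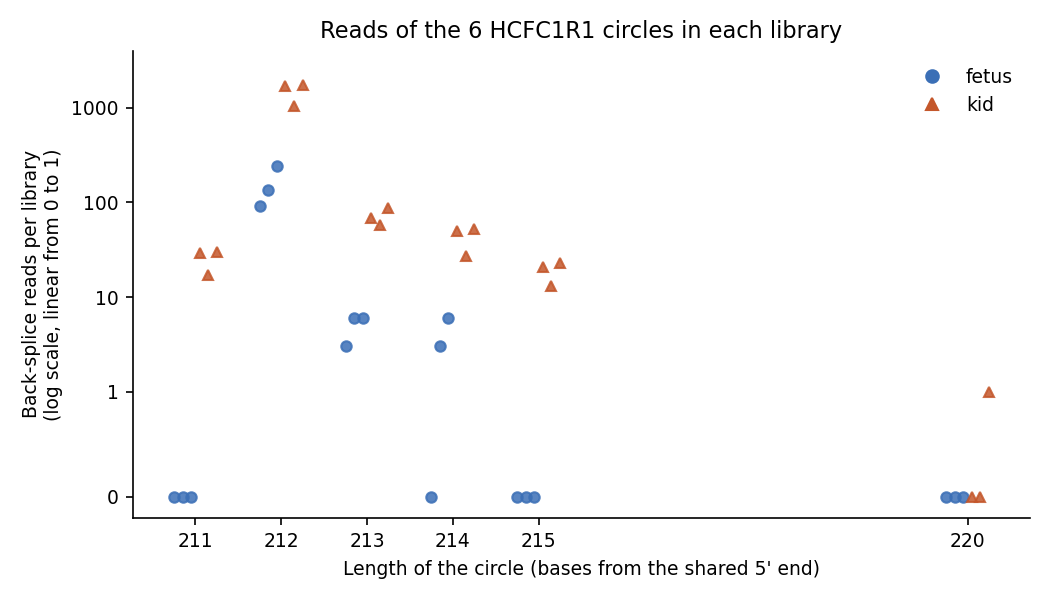
Back-splice reads of the 6 HCFC1R1 circles in each library (y axis, log scale that is linear from 0 to 1) against the length of the circle in bases (x axis). Circles are fetus libraries, triangles are kid libraries, and points are set apart sideways for legibility. At 212 bases the fetus libraries lie between 92 and 241 reads and the kid libraries between 1034 and 1725, and at 211 and 215 bases all fetus points are at 0.

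Summed over the 5 neighbouring 3′ ends, the circle had 95, 143 and 253 reads in fetus and 1876, 1149 and 1918 in kid. The mean level was 3499 ± 942 CPM in fetus and 27897 ± 1581 CPM in kid (SD, n = 3 each), a ratio of 7.97. The lowest kid library stood 6.35-fold above the highest fetus library. In the fit over all joined circular RNAs the log2 fold change was 2.99 ± 0.20 (SE) of kid over fetus. Summed over all 6 entries as a host gene it was 2.98 ± 0.19. The authors' deposited table gives log2 fold changes of fetus over kid of -2.89, -3.43 and -3.57 for the circles of 212, 213 and 214 bases, and minus infinity for those not read in fetus.

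Within a stage, the order of the libraries depended on the scaling. In CPM the kid libraries stood at 26391, 29544 and 27770, with kid 2 the highest. Per 1000000 valid reads they stood at 36.1, 23.8 and 37.0, with kid 2 the lowest. Kid 2 yielded 883 back-splice reads of any kind per 1000000 valid reads, against 1482 and 1427 in kid 1 and kid 3. The fetus libraries stood at 2419, 3920 and 4156 CPM and at 2.78, 3.94 and 5.31 reads per 1000000 valid reads, with fetus 1 the lowest on both scales. The stages stayed apart on both scales.

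**Figure D2:**
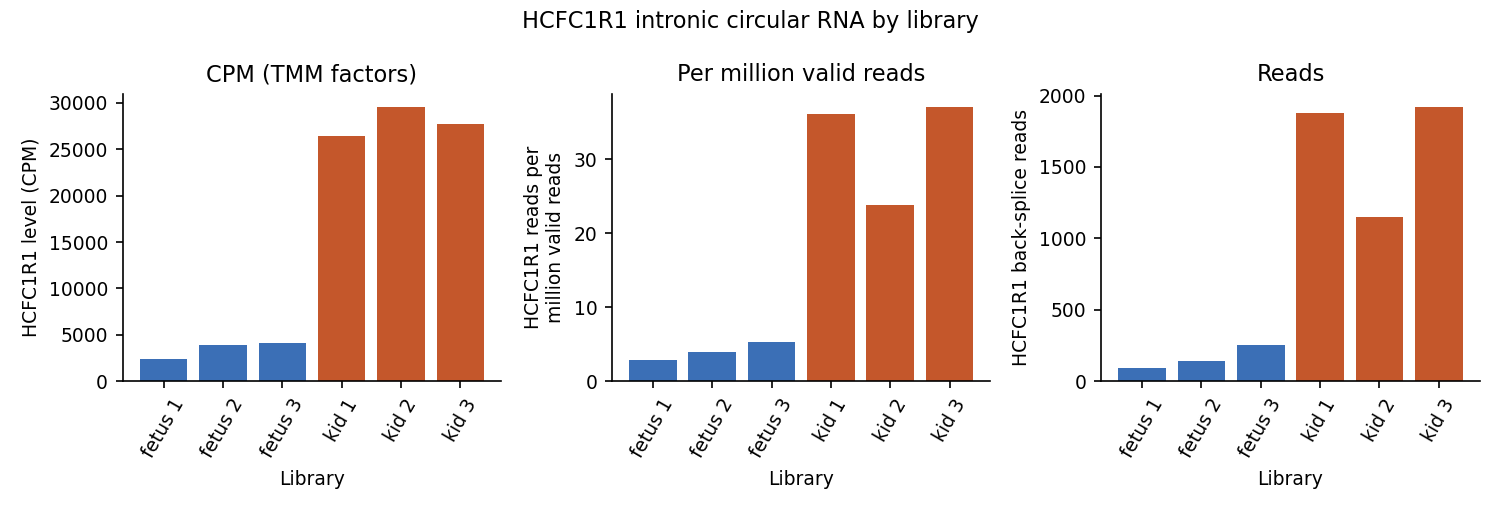
Level of HCFC1R1 circular RNA in each library as CPM with TMM factors (left), as reads per 1000000 valid reads (middle) and as back-splice reads (right). Bars are single libraries, blue for fetus and orange for kid. Kid 2 is the highest kid library at 29544 CPM and the lowest at 23.8 reads per 1000000 valid reads, and all kid bars exceed all fetus bars.

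The main circle took most of the reads at both stages, and the other 3′ ends held a larger share in kid. They held 3.16%, 6.29% and 4.74% of HCFC1R1 reads in the fetus libraries and 8.96%, 10.01% and 10.1% in the kid libraries. No kid library overlapped a fetus library. These shares include the circles of 211 and 215 bases, which had 0 fetus reads and passed the read filter through kid alone. The gap between the stages rests in part on those ends, and nothing is read from it. The mean share was 4.73 ± 1.57% in fetus and 9.69 ± 0.64% in kid (SD, n = 3 each). Pooled over a stage, 24 of 491 fetus reads (4.89%, exact 95% interval 3.16 to 7.19%) and 477 of 4944 kid reads (9.65%, 8.84 to 10.5%) were at other ends. The interval of each fetus library was wide, and that of fetus 2 (2.92 to 11.6%) spans the kid values. Those of fetus 1 (0.656 to 8.95%) and fetus 3 (2.47 to 8.14%) end below every kid share. Both still reach into the interval of kid 1, 7.70 to 10.3%. Such intervals and floors reflect counting error alone, as reads copied by PCR need not stem from separate molecules.

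The 3′ ends ranked alike in the 3 kid libraries: after 212 bases came 213, 214, 211 and 215 bases. The 213-base circle held 4.33% of the pooled kid reads (exact 95% interval 3.78 to 4.93%) and 3.05% of the fetus reads (1.72 to 4.99%), and these intervals overlap. The 214-base circle held 2.61% in kid (2.18 to 3.09%) and 1.83% in fetus (0.842 to 3.45%), which overlap as well. The 211-base circle held 1.54% of the kid reads (1.21 to 1.92%). Its 0 of 491 fetus reads allow a share of up to 0.748% in fetus by the exact 95% interval, or 0.611% by the floor of 3 reads. The 215-base circle held 1.15% in kid (0.874 to 1.49%), and its 0 fetus reads allow the same 0.748%. Pooled intervals leave out the spread between libraries, and both ends passed the read filter through kid alone. The pooled shares are therefore no test of a stage difference. In single fetus libraries the exact upper limit was 3.81%, 2.55% and 1.45%. These reach into the kid intervals of both ends, so in no single fetus library could either end be told from its kid share.

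**Figure D3:**
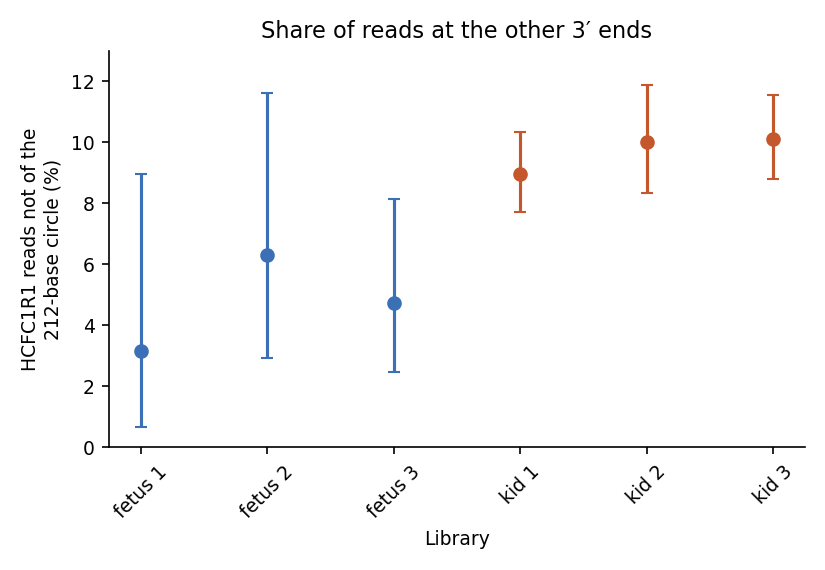
Share of HCFC1R1 reads at 3′ ends other than that of the 212-base circle, in percent, for each library. Points are libraries, blue for fetus and orange for kid, and bars are exact 95% binomial intervals. The kid libraries lie between 8.96% and 10.1% and the fetus libraries between 3.16% and 6.29%, with wider intervals in fetus.

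Most intronic 5′ ends had a single listed 3′ end, unlike that of HCFC1R1. Of 2243 intronic 5′ ends, 241 had more than 1 listed 3′ end, whereas 77 of 2497 3′ ends had more than 1 5′ end. More reads leave room for more ends, and HCFC1R1 had 5435 reads against 881 for the next 5′ end. Its 6 3′ ends lay at most 9 bases apart. The other 5′ ends with 6 or more belonged to PDLIM7 (107 reads), TNS2 (23 reads), LOC106503398 (8 reads) and SVIL (6 reads), whose 3′ ends spread over 15 to 72 bases. Among the 23 5′ ends with at least 100 reads, 10 had 1 3′ end, and 3 had several that all lay within 10 bases. These 3 were HCFC1R1, RNF25 (a ubiquitin ligase) and SMARCC2 (a subunit of the BAF chromatin remodelling complex). Others lay just beyond that window: SEMA3F (3 ends over 12 bases), PLEKHH3 (5 over 15 bases) and RCL1 (2 over 16 bases). At any depth, 132 of the 241 5′ ends with more than 1 3′ end had them all within 10 bases, so close ends were common. The main end held 90.8% of the reads in HCFC1R1, 74.2% of 159 reads in RNF25 and 88.7% of 106 reads in SMARCC2. At 212 bases the HCFC1R1 circle was short for its class, whose median length was 583 bases, and 19.1% of intronic entries were shorter.

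HCFC1R1 gave the most abundant intronic circle at both stages. Among 2477 joined intronic circles it ranked 1 by mean CPM in fetus and in kid. Among all 23913 joined circular RNAs it ranked 13 in fetus and 2 in kid, where the main circle of the ubiquitin ligase gene UBE3A was ahead. It held 5.88%, 8.35% and 8.14% of the intronic reads in the fetus libraries and 28.3%, 31.2% and 28.1% in the kid libraries. Of all back-splice reads it held 0.260%, 0.430% and 0.448% in fetus and 2.43%, 2.69% and 2.60% in kid. Since this share is part of the total that CPM is scaled to, the ratio of CPM does not measure molecules per cell.

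**Figure D4:**
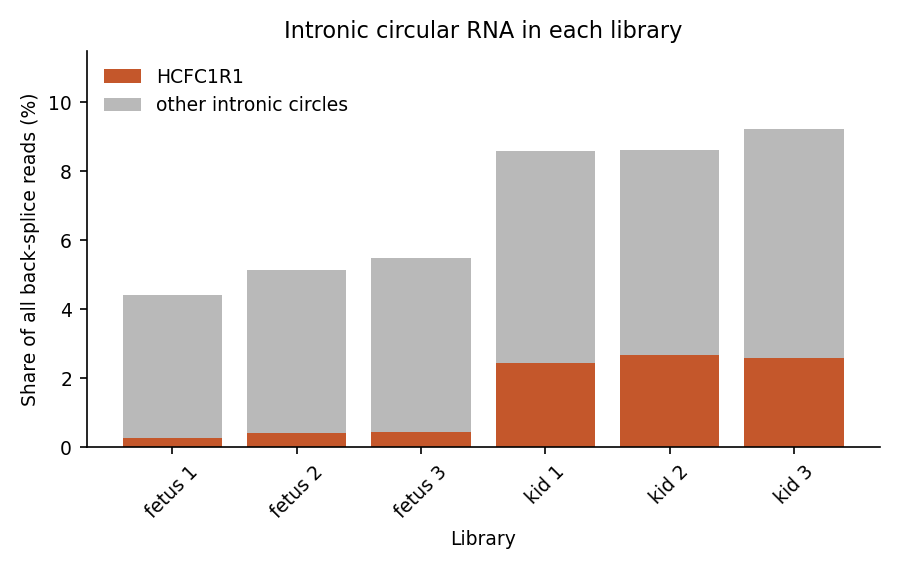
Share of all back-splice reads, in percent, held by HCFC1R1 (orange) and by all other intronic circles (grey) in each library. HCFC1R1 held 0.260% to 0.448% in the fetus libraries and 2.43% to 2.69% in the kid libraries, and the other intronic circles were also higher in every kid library.

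The remaining intronic circles moved the same way by less. Without HCFC1R1, intronic reads were 4.67 ± 0.45% of the remaining back-splice reads in fetus and 6.41 ± 0.36% in kid (SD, n = 3 each). All kid libraries exceeded all fetus libraries, and the exact permutation test, two-sided, gave p = 0.1, the smallest that 3 against 3 libraries allow. In edgeR's quasi-likelihood test with Benjamini-Hochberg adjustment, 24 of 120 other joined intronic circles passed an adjusted p of 0.05, with 19 higher in kid and 5 lower, those of PDLIM7, YAF2 and CREB5 among the latter. Over all 1961 joined circular RNAs tested 15.2% passed. The other intronic circles had a median log2 fold change of 0.58, that of all tested circular RNAs 0.07.

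By mean CPM over all 6 libraries the next intronic circle lies in SEMA3F, which encodes a secreted guidance protein. In fetus alone the circle of CUL1, a scaffold of ubiquitin ligases, came next with a mean of 1620 CPM. The SEMA3F circle had 25, 23 and 20 reads in fetus and 191, 128 and 376 in kid. It rose from 532 ± 176 CPM to 3806 ± 1448 CPM (SD, n = 3 each; log2 fold change 2.87 ± 0.33 SE, edgeR adjusted p = 1.40e-04). This is 1 listed 3′ end, whereas HCFC1R1 is summed over 5. The other tested intronic circles of SEMA3F, with 93 and 25 reads, had smaller log2 fold changes of 1.37 and 1.58. The circle of GPN1, a GTPase that serves the nuclear import of RNA polymerase II, rose from 751 ± 34.5 CPM to 2548 ± 544 CPM (log2 fold change 1.76 ± 0.23, edgeR adjusted p = 4.25e-04). The listed circle of LEMD3, an inner nuclear membrane protein, stood at 1422 ± 167 CPM and 1846 ± 159 CPM and did not pass (log2 fold change 0.38 ± 0.20, edgeR adjusted p = 0.236). Of the 21 other tested intronic circles with at least 100 reads, 4 had a fitted log2 fold change above that of HCFC1R1, in PLEKHH3, ZNRF1, PPP1R12B and KCNQ5. Their mean level in kid was 552 to 771 CPM, and those of ZNRF1 and PPP1R12B had 0 fetus reads, where a fitted fold is no measure of size. Of 448 such exonic circular RNAs, 11 did. Without the limit on reads, 15 of the 120 other tested intronic circles and 53 of 1790 exonic ones had a higher fitted value. Large rises in kid were therefore found elsewhere too, and no test of the difference from HCFC1R1 was run.

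**Figure D5:**
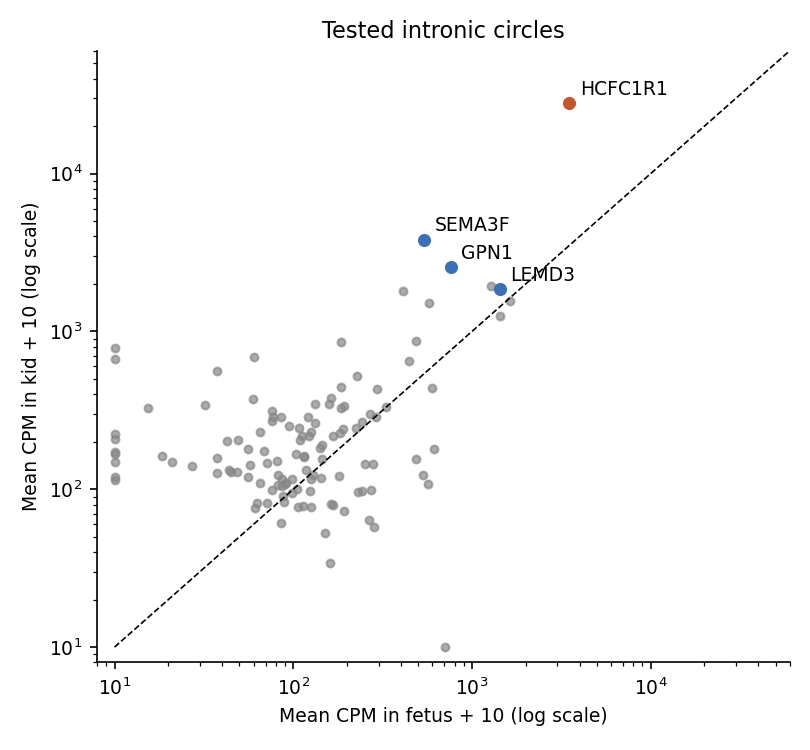
Mean CPM in kid against mean CPM in fetus for the 121 tested joined intronic circles, each with 10 CPM added, on log axes. The dashed line marks equal levels. HCFC1R1 (orange) has 3499 CPM in fetus against 27897 CPM in kid, above the line and beyond the next circles SEMA3F, GPN1 and LEMD3 (blue).

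Host genes whose circular RNA followed that of HCFC1R1 were sought by Pearson's r of log2(CPM + 10) over the 6 libraries, among 1687 host genes. The 6 libraries form 2 stages, so r mainly reflects the step between them, and 50 host genes had an r over 0.95. The 5 with the highest r, 0.986 to 0.992, were ARHGAP10, ADARB1, EEFSEC, LMO7 and FAM160A1. ADARB1 encodes an RNA-editing adenosine deaminase, EEFSEC the elongation factor for selenocysteine and LMO7 a LIM domain protein. ARHGAP10 had 154, 144 and 249 reads in fetus and 562, 316 and 551 in kid. ADARB1 had 1, 3 and 4 reads in fetus and 28, 17 and 31 in kid. Their fitted log2 fold changes ran from 0.99 for ARHGAP10 to 2.80 for ADARB1, below that of HCFC1R1.

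Circular RNA of HCFC1, the known partner of the HCFC1R1 protein, came to 1 read, in kid. Of 43 listed HCFC1 complex partners 28 had a read and 5 were tested, of which 0 rose, 1 fell and 4 did not pass. Over all 1755 host genes tested, 19.2% passed. The median log2 fold change of these 5 was -0.47, against 0.01 over all tested host genes. The member that fell was CREB3, a membrane-bound transcription factor that binds HCFC1, with 14, 5 and 6 reads in the fetus libraries against 3, 2 and 2 in the kid libraries (log2 fold change -2.23 ± 0.76 SE, edgeR adjusted p = 0.0446). The call of CREB3 was lost in 7 of 10 other settings (highest edgeR adjusted p = 0.149), among them each fit without 1 kid library, and without a fetus library it could not be fitted. The most read of the listed partners was KANSL1, a subunit of a histone acetyltransferase complex, with 86, 52 and 117 reads in the fetus libraries against 107, 75 and 111 in the kid libraries. It stood at 1953 ± 387 CPM and 1768 ± 266 CPM (SD, n = 3 each) and did not pass (log2 fold change -0.16 ± 0.23 SE, edgeR adjusted p = 0.687). HCFC2, the paralog of HCFC1, had 46 reads in fetus and 44 in kid and did not pass (edgeR adjusted p = 0.478).

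Of 18 nuclear export genes 12 had a read and 7 were tested. Among these 1 rose, 0 fell and 6 did not pass, with a median log2 fold change of 0.16. The values ran from -0.61 for XPO6 to 2.24 for NUP98, and neither passed (edgeR adjusted p = 0.415 and 0.0884). The share that passed over all 1755 tested host genes was 19.2%. NUP88, a nucleoporin, had 6, 3 and 1 reads in the fetus libraries against 13, 10 and 33 in the kid libraries (log2 fold change 1.95 ± 0.66 SE, edgeR adjusted p = 0.0414). Its call was lost in 9 of 14 other settings (highest edgeR adjusted p = 0.189), and its log2 fold change ran from 1.33 without fetus 3 to 4.03 with fetus 3 as the only fetus library. XPO1, the export receptor, had 29 reads in fetus and 32 in kid and did not pass (edgeR adjusted p = 0.787).

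Of 20 genes of lariat formation, release and debranching 11 had a read and 4 were tested, and none of these 4 passed (0 rose, 0 fell), by edgeR or by DESeq2, nor had any an unadjusted p under 0.05 in edgeR. Their median log2 fold change was 0.06. In edgeR 19.2% of all 1755 tested host genes passed. SF3B1, which binds the branch point region as part of the U2 particle, had 46 fetus reads and 90 kid reads (log2 fold change 0.50 ± 0.39 SE, edgeR adjusted p = 0.406). DHX15, a helicase that takes apart the complex on the released lariat, had 17 and 39 reads (edgeR adjusted p = 0.357). DBR1 had 6, 7 and 1 reads in fetus and 5, 0 and 6 in kid, which overlap (edgeR adjusted p = 0.542). These are circular RNAs of the genes and do not measure their mRNA. Of the 10 genes that neighbour HCFC1R1 on chromosome 25, CLDN6, CLDN9, TNFRSF12A and THOC6 among them, 1 (LOC102176755) had any circular RNA, with 2 reads in fetus and 0 in kid.

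Marker genes of cell types also differed between the stages in these bulk samples, where fewer cells of a type and less RNA per cell cannot be told apart. For scale, 19.2% of all 1755 host genes tested passed, with 193 higher in kid and 144 lower. The summed circular RNA of muscle fibre markers was 12169 to 12933 CPM in the fetus libraries and 21089 to 26550 CPM in the kid libraries. Of 9 tested fibre markers 5 rose (NEB, CKM, ATP2A1, ACTN2 and DMD), 0 fell and 4 did not pass. Fibroblast and matrix markers, 6 of 6 with a read, summed to 729.9 to 1267 CPM in fetus and 103 to 359 CPM in kid, and both tested members, COL12A1 and POSTN, fell. Of the untested members, COL1A2, COL3A1 and PDGFRA had lower mean CPM in kid. COL1A1 went the other way, with 0, 4 and 1 reads in fetus and 1, 11 and 2 in kid. PAX7, the one satellite cell marker of 3 with a read, stood at 52.1 to 240.0 CPM in fetus and 0 to 14.8 CPM in kid. Endothelial markers stood at 86.9 to 213 CPM and 118 to 193 CPM, nerve markers at 52.1 to 80.0 CPM and 0 to 82.9 CPM, and the fat marker PPARG at 0 CPM and 0 to 27.6 CPM. Immune markers were at 0 in every library. The part of cell composition in the level of the HCFC1R1 circle was not tested.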

How the data were processed

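Per the labels' protocols, RNA was depleted of ribosomal RNA, treated with RNase R and made into strand-marked (dUTP) paired-end libraries. Cutadapt, FastQC and TopHat are named per the submitters' processing notes. For the circRNA caller, the build and the settings the sources used here name nothing. The authors deposited counts of back-splice reads per entry, a normalized signal (SRPBM, the count times one constant per library), and counts of valid reads with percent values for reads kept and GC content, per the file headers. Their deposited comparison holds a log2 fold change, a p-value and a q-value, of which the log2 fold change alone is quoted. The count tables differ at 38 values, 0 of them in HCFC1R1.

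Gene numbers (4563 entries) were matched to symbols in the RefSeq table (ARS1.2), all 4563 with a match. Entries of one strand whose start and end differ by at most 1 base were joined in chains (23913 circles). The whole tables were fitted with edgeR 4.0.16 in R 4.3.3 (TMM, glmQLFit robust, glmQLFTest, kid minus fetus, at least 5 reads in at least 3 libraries, Benjamini-Hochberg), which was tested on simulated data. CPM of HCFC1R1 uses the TMM factors of the joined table. SE is the absolute log2 fold change over the square root of F. Shares have exact Clopper-Pearson 95% intervals, and floors are 3 reads over a group. DESeq2 1.42.0 and Python 3.11.15 with scipy 1.17.1 served the alternatives and exact tests. Replicate numbers did not pair the libraries and no 2 libraries agreed within sampling noise.

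The members and lists were chosen with earlier results of these data known. Named are every HCFC1R1 entry, the 5 host genes of highest r, the 3 next intronic circles by mean CPM over all 6 libraries, and up to 2 risen and 2 fallen members of a list, or, in a list with none of these, its 2 most read members. HCFC1, HCFC2, KANSL1, CUL1, XPO1, DBR1, RNF25, SMARCC2, UBE3A, the hosts of circles named for many 3′ ends, for a fall or for a larger fold, the named neighbours of HCFC1R1 and the named marker genes were chosen outside this rule, after their values were seen. So were XPO6 and NUP98.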

Additional observations from a re-analysis of the deposited data

How the results depend on the processing

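The log2 fold change of the joined HCFC1R1 circle was 2.65 to 3.10 over 15 other settings and that of the host total 2.71 to 3.10 over 14, all within the spread between replicates. The lowest values came with fetus 3 as the only fetus library, a setting chosen after seeing the data. The rank of the circle did not change with median CPM or SRPBM. The intronic share of HCFC1R1 reads was 100% in every setting by construction, as the gene has 0 exonic entries. The difference in the share of other 3′ ends was 4.17 to 5.74 percentage points and that of other intronic reads 1.33 to 1.94, over settings added after seeing the data. GPN1 did not pass with fetus 3 as the only fetus library (edgeR adjusted p = 0.0782), and SEMA3F passed in all 15.

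Counts of calls over the whole tables depended more on the settings, and the cause was not tested. For entries (226 called) they were 137 scaled to valid reads, 89 with the replicate number as a block, 85 to 135 with 1 library left out and 8 with fetus 3 as the only fetus library. For joined circles (298 called) they were 146 to 214 with 1 library left out and 18 with fetus 3 alone, and for host genes (337 called) 200 scaled to valid reads, 184 to 248 with 1 library left out and 68 with fetus 3 alone. With the replicate block 229 joined circles and 318 host genes were called, and CREB3 and NUP88 did not pass (edgeR adjusted p = 0.0768 and 0.0509). Same-numbered libraries of the stages had correlations of -0.03 to 0.03, so the numbers were not taken as pairs. Without TMM the joined circles split into 146 higher and 181 lower (182 and 116 with TMM), entries into 114 and 124 (132 and 94) and host genes into 135 and 203 (193 and 144), and the median log2 fold change of host genes was -0.20. The depth of fetus 1 and fetus 2, with 95 and 143 HCFC1R1 reads, limits what can be said of the rarer 3′ ends in fetus.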
